A study of Mus musculus with 26 samples.

Results

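Transcript uc007noh.1 forms a cluster by itself, 1 of 31469 transcript clusters measured in mouse liver, and it is 3286 nt long. It was selected on its estimated counts in cytoplasmic hnRNPK immunoprecipitates (IPs), which were above 0 in both obese mouse groups and 0 in lean mice. Those IP values are therefore given as a description, with no test. The 4 clusters with neighbouring numbers, which hold uc007nof.1, uc007nog.1, uc007noj.1, and uc007nok.2 with uc007nol.2, were taken as context because reads can be divided among similar transcripts. The identifiers of the 5 clusters were looked up in the gene name tables, and 0 of 6 were found there, so neither a gene name nor a genome position is given. The label of liver could not be checked against marker genes for the same reason.

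The 3 mouse groups were ob/ob mice (strain B6.V-Lepob/J) given normal diet, C57BL/6J mice given a high-fat diet, and C57BL/6J mice given normal diet, called wild type. Ages, the time on the diet and whether replicates were separate animals are not given in the sources used here, so the p-values speak only to sample-to-sample spread, which may be technical. Each group had 2 cytoplasmic IPs, 2 nuclear IPs and 4 libraries of total liver RNA, and 1 IgG control per compartment came from mixed strains and diets. Total RNA libraries sharing a replicate number, 2 in each case, were added together, which gave 2 units per group and kind of RNA. The design asks which RNAs hnRNPK holds in each compartment and whether obesity alters this.

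The protein hnRNPK binds single-stranded, cytosine-rich RNA through KH domains, moves between nucleus and cytoplasm, and takes part in splicing, RNA stability and translation. Mice of the ob/ob strain lack the appetite-suppressing hormone leptin, overeat and develop obesity with a fatty liver, and a high-fat diet leads to obesity in mice with an intact leptin gene. Genes that arose by duplication can have transcripts so alike that a short read matches several of them. RSEM, the program that made the counts, then divides such reads in proportion to its running estimate for each transcript. An estimate of 0 can therefore also stand for reads given to a similar transcript, and the tables do not separate the alternatives.

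Depth ranged over 8834063 to 12068891 counts for cytoplasmic IP, 5336060 to 10581089 for nuclear IP and 25597307 to 41731910 for total RNA. Nuclear IgG held 3116786 counts and cytoplasmic IgG 338469, which makes the cytoplasmic control shallow. Levels are given as CPM, counts relative to the scaled library size, with TMM scaling, a method that sets libraries to a common scale by the bulk of their clusters.

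In cytoplasmic IP, uc007noh.1 had 44.2 and 49.2 CPM in the ob/ob units, 12.6 and 17.04 CPM in the high-fat diet units, and 0 in both wild-type units. The estimated counts behind these levels were 488 and 467 in ob/ob, 101 and 107 on high-fat diet, and 0 and 0 in wild type. The groups did not overlap, with both ob/ob units above both high-fat diet units and these above wild type. Here and below, shares of all clusters with units apart are over the 13516 clusters that passed a filter on low counts. Of these, 28.6% had both ob/ob units above both wild-type units in this IP. Both high-fat diet units lay above wild type in 25.4%, and ob/ob lay above high-fat diet in 26.5%. The 0 counts in wild type allow a level of up to 0.184 CPM over both units (3 counts), a limit that covers counting error and not the division of reads. The group means were 46.7 ± 3.57 CPM for ob/ob and 14.8 ± 3.13 CPM for high-fat diet (SD, n = 2 each), a ratio of 3.15.

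**Figure D1:**
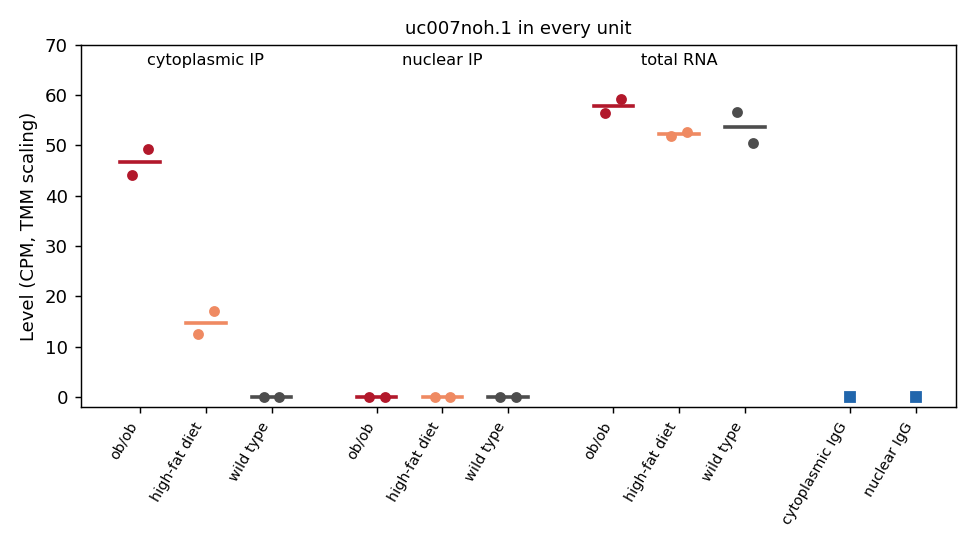
Level of uc007noh.1 in CPM with TMM scaling (vertical axis) in cytoplasmic IP, nuclear IP and total RNA of ob/ob, high-fat diet and wild-type livers, with 1 point per unit, a line at the mean of 2 units, and squares for the single IgG libraries. Cytoplasmic IP has 44.2 and 49.2 CPM in ob/ob, 12.6 and 17.04 on high-fat diet and 0 in wild type, while every total RNA unit lies between 50.5 and 59.1 CPM.

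In nuclear IP the transcript had 0 counts in all 6 units, which allows up to 0.0711 CPM over the 44266122 counts of these units. Nuclear IgG also had 0 counts, with a limit of 0.702 CPM. Cytoplasmic IgG had 0 counts too, but at its depth this allows up to 6.51 CPM, against 12.6 CPM in the lowest high-fat diet IP unit.

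Total RNA held the transcript in every library. The lowest, median and highest of the 4 libraries per group, by library size alone, were 58.9, 70.8 and 80.4 CPM in ob/ob, 62.2, 64.1 and 64.8 on high-fat diet, and 50.9, 60.2 and 66.3 in wild type. With TMM scaling, the units had 56.3 and 59.1 CPM in ob/ob, 51.8 and 52.6 on high-fat diet, and 50.5 and 56.6 in wild type. Both ob/ob units lay above both high-fat diet units, which 25.7% of all clusters did, while wild type overlapped with each. In bulk tissue, fewer cells of a type and less RNA per cell cannot be told apart.

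Whether the total level differed between mouse groups was tested with edgeR's quasi-likelihood test across 15487 clusters. The log2 fold change was 0.18 ± 0.10 for ob/ob over wild type (SE, edgeR adjusted p = 0.30), and 1.58% of clusters passed the threshold of 0.05 in this comparison. It was 0.19 ± 0.10 for ob/ob over high-fat diet (edgeR adjusted p = 0.34), where 0.491% of clusters passed. For high-fat diet over wild type it was -0.0034 ± 0.10 (edgeR adjusted p = 0.996), and its sign turned with library size scaling (0.11). In that comparison edgeR called 0 clusters (0.0%), while 1527 had an unadjusted p under 0.05 and DESeq2 called 320. None of the 3 comparisons passed for uc007noh.1, which does not show that its total level was equal.

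Set against total RNA of the same mouse group, the cytoplasmic IP level was 80.9% of the total level for ob/ob mice, 28.4% for high-fat diet mice and 0 for wild type. By library size alone these were 58.1% and 17.7%, so the IP lay below total RNA under either scaling. No mouse group had this transcript at a higher share in an IP than in total RNA, which is whole-liver RNA and not the input of the extracts.

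Among the context clusters, 1 holds uc007nok.2, of the same length as uc007noh.1 (3286 nt), and the shorter uc007nol.2 (2749 nt). Transcripts uc007nog.1 and uc007noj.1, of 3841 nt each, had identical estimated counts in all 26 libraries. Among 20381 clusters with any count, 1524 (7.48%) were identical to another cluster in this way. Transcript uc007nof.1 is 4264 nt long. Per transcript length, in deposited TPM, uc007noh.1 was the most abundant of these in total RNA, with 26.3 to 43.2 (median 33.9), against 20.0 to 24.5 for uc007nof.1, 17.6 to 20.9 for uc007nok.2, 1.38 to 5.35 for uc007nol.2 and 0.95 to 2.62 for uc007nog.1.

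The 2 transcripts of equal length kept a narrow ratio in total RNA. There, uc007noh.1 had 1.47 to 1.97 times the counts of uc007nok.2 in the 6 units. In cytoplasmic IP the ratio was 0.813 and 1.08 in ob/ob, 0.524 and 0.750 on high-fat diet, and 0 in wild type. In nuclear IP uc007noh.1 was at 0 and uc007nok.2 had at most 1.83 TPM. In nuclear IP replicate 2 of every mouse group, and in nuclear IgG, uc007nok.2 was at 0 as well. Every cytoplasmic IP unit thus lay below the total RNA range of this ratio.

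The uc007nok.2 cluster followed the same order of mouse groups in cytoplasmic IP, with 56.8 and 47.5 CPM in ob/ob, 26.2 and 24.0 on high-fat diet, and 21.95 and 3.96 in wild type. Such an order without overlap was found in 28.6% of all clusters for ob/ob over wild type. It was found in 25.4% for high-fat diet over wild type and in 26.5% for ob/ob over high-fat diet. With TMM scaling the uc007nok.2 cluster had no overlap between groups, but its wild-type units stood far apart. By library size alone its high-fat diet units (15.8 and 23.8 CPM) overlapped with its wild-type units (3.28 and 18.6 CPM). The log2 fold change was 1.93 ± 0.55 for ob/ob over wild type (SE, edgeR adjusted p = 0.075), which missed the threshold. It passed by library size (2.08, edgeR adjusted p = 2.5e-07) and with no filter on low counts (1.93, edgeR adjusted p = 1.5e-14). Without wild-type replicate 1 it was 3.64 and without wild-type replicate 2 it was 1.18, and both passed (edgeR adjusted p = 7.4e-05 and 0.013). For high-fat diet over wild type it was 0.89 ± 0.55 (edgeR adjusted p = 0.45), or 2.61 without wild-type replicate 1 (edgeR adjusted p = 0.0010), and for ob/ob over high-fat diet it was 1.04 ± 0.53 (edgeR adjusted p = 0.37). With no filter, high-fat diet over wild type (0.90) and ob/ob over high-fat diet (1.03) passed as well (edgeR adjusted p = 0.0065 and 0.00019), as did ob/ob over high-fat diet by library size (1.23, edgeR adjusted p = 0.011). In nuclear IP this cluster had 1.78 to 6.42 CPM, against 32.1 to 39.0 in total RNA. In nuclear IP replicate 2 of every mouse group, all of its counts were those of uc007nol.2. Cytoplasmic IgG held 10.8 CPM, a value that rests on 4.58 estimated counts.

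Transcript uc007nof.1 had the reverse distribution over the kinds of RNA. Its levels were 147 to 225 CPM in nuclear IP, 73.1 to 117 in cytoplasmic IP and 42.8 to 52.1 in total RNA. Nuclear IgG had 133 CPM of it and cytoplasmic IgG 36.9, so control beads also held it. By library size alone, nuclear IgG had 183 CPM. That was above both high-fat diet nuclear IP units (101 and 132) and the lower ob/ob unit (178). The higher ob/ob unit (209) and both wild-type units (212 and 236) lay above nuclear IgG. Cytoplasmic IgG had 50.2 CPM on that scale, above the lower high-fat diet IP unit (48.0) and below every other cytoplasmic IP unit. In cytoplasmic IP it had 101 and 79.1 CPM in ob/ob, 83.1 and 73.1 on high-fat diet, and 117 and 114 in wild type, with both obese groups below wild type. Across all clusters, 21.4% had both ob/ob units below both wild-type units and 20.2% had both high-fat diet units below them. The log2 fold changes were -0.43 ± 0.17 for ob/ob over wild type and -0.62 ± 0.17 for high-fat diet over wild type (SE, edgeR adjusted p = 0.16 for each), and neither passed.

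Transcripts uc007nog.1 and uc007noj.1, whose values are the same and count as 1 measurement, had their highest total RNA levels in ob/ob. Each had 4.31 and 4.46 CPM in ob/ob, 2.18 and 2.29 on high-fat diet, and 2.46 and 2.08 in wild type. Both ob/ob units lay above both wild-type units, which 20.0% of all clusters did. The log2 fold change of 1.02 ± 0.18 for ob/ob over wild type missed the threshold (SE, edgeR adjusted p = 0.056), as did 1.01 ± 0.18 for ob/ob over high-fat diet (edgeR adjusted p = 0.075). DESeq2 called both (adjusted p = 0.00019 and 0.00024). Without wild-type total RNA replicate 1 the first was 1.18 and passed (edgeR adjusted p = 0.014). Cytoplasmic IP showed 4.71 and 6.33 CPM in ob/ob, 2.37 and 2.87 on high-fat diet, and 2.01 and 3.07 in wild type, a log2 fold change of 1.05 ± 0.37 for ob/ob over wild type (edgeR adjusted p = 0.13).

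**Figure D2:**
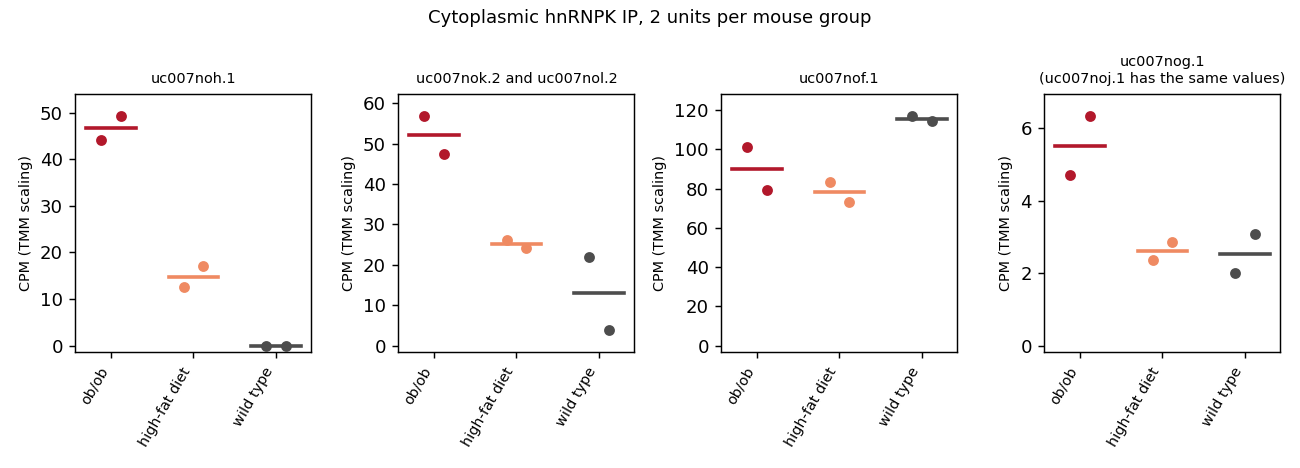
Level in cytoplasmic IP, in CPM with TMM scaling (vertical axes start near 0 and differ between panels), of uc007noh.1 and of the context clusters, with 1 point per unit and a line at the mean of 2 units. Transcript uc007noh.1 and the uc007nok.2 cluster are highest in ob/ob, uc007nof.1 is highest in wild type (117 and 114 CPM), and uc007nog.1 is at 4.71 and 6.33 CPM in ob/ob against 2.01 to 3.07 CPM in the other groups.

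Counting uc007nog.1 and uc007noj.1 once, the context clusters gave 3 measurements. Of these, edgeR called 0 in each comparison of cytoplasmic IP, where 5.59% of all 11901 clusters passed for ob/ob over wild type, 0.0588% for high-fat diet over wild type and 0.992% for ob/ob over high-fat diet. An unadjusted edgeR p under 0.05 was found for 3, 1 and 1 of them in that order, against 25.4%, 16.3% and 16.5% of all clusters. DESeq2 called 0 of the 3 in each, against 7.55%, 2.27% and 2.97% of all clusters. In total RNA edgeR called 0 of the 3 in each comparison as well. An unadjusted edgeR p under 0.05 was found for 1 with ob/ob over wild type, 0 with high-fat diet over wild type and 2 with ob/ob over high-fat diet, against 26.9%, 9.86% and 21.9% of all clusters. DESeq2 called 1, 0 and 1 of them in that order, against 13.6%, 2.07% and 9.25% of all clusters. The comparisons with wild type share the wild-type units.

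**Figure D3:**
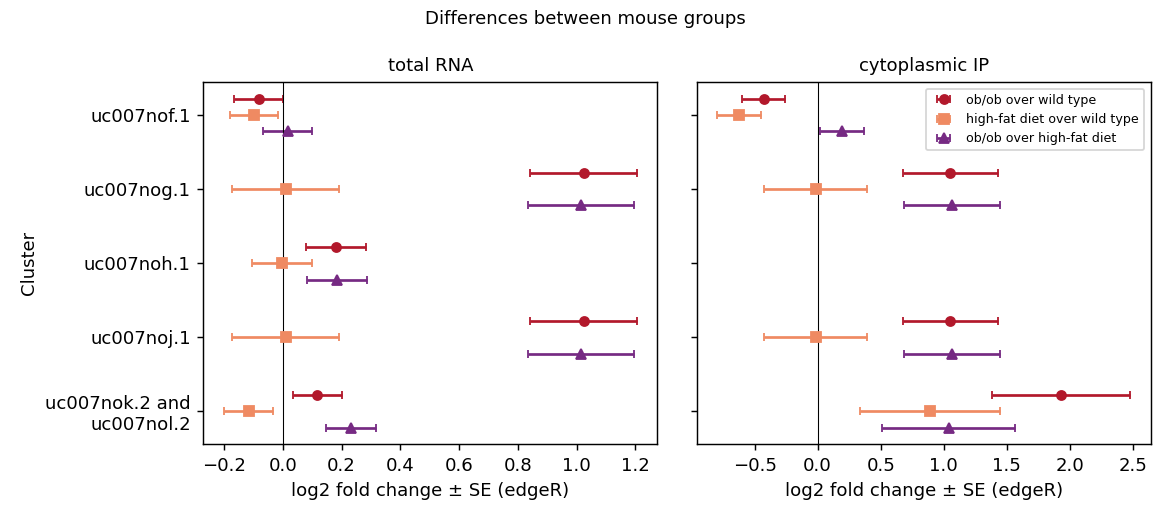
Log2 fold change with its SE from edgeR (horizontal axes, different ranges) for uc007noh.1 and the 4 context clusters in total RNA and for the 4 context clusters in cytoplasmic IP, for ob/ob over wild type, high-fat diet over wild type and ob/ob over high-fat diet. Values for uc007noh.1 in total RNA lie between -0.0034 and 0.19, and the largest value shown is 1.93 ± 0.55 for the uc007nok.2 cluster in cytoplasmic IP, ob/ob over wild type; none passed the threshold.

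Because reads can be moved between similar transcripts, the clusters were also summed, which was decided after their values were seen. Together, uc007noh.1 and the uc007nok.2 cluster had 101 and 96.8 CPM in the cytoplasmic IP of ob/ob, 38.8 and 41.1 in high-fat diet, and 21.95 and 3.96 in wild type. Since the pair contains the selected transcript, these sums are a description and no check of its order. In total RNA the pair had 95.3 and 93.8 CPM in ob/ob, 84.2 and 84.7 on high-fat diet, and 91.2 and 87.6 in wild type. The cytoplasmic IP mean of the pair was 105% of total RNA in ob/ob mice, 47.3% in high-fat diet and 14.5% in wild type. By library size alone these were 75.4%, 30.1% and 11.05%, so whether ob/ob lay above or below total RNA depends on the scaling. Nuclear IP held 3.46% to 4.42% of the total RNA level of the pair. Cytoplasmic IgG had 10.8 CPM of the pair, from 4.58 estimated counts, which lay between the 2 wild-type cytoplasmic IP units. By library size alone it had 14.8 CPM, again between the wild-type units (3.28 and 18.6 CPM).

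Summed over all 5 clusters, the kinds of RNA and the mouse groups were closer together. Cytoplasmic IP had 212 and 189 CPM in ob/ob, 127 and 120 on high-fat diet, and 143 and 124 in wild type. Here ob/ob lay above both other groups, while high-fat diet and wild type overlapped. Among single clusters, 28.6% had both ob/ob units above wild type in this IP and 26.5% had them above high-fat diet. The ratio of means was 1.50 for ob/ob over wild type and 0.924 for high-fat diet over wild type. The nuclear IP sum, mostly uc007nof.1, was 154 to 233 CPM and the total RNA sum 135 to 152. Nuclear IgG had 138 CPM of this sum and cytoplasmic IgG 52.1. By library size alone, nuclear IgG had 189 CPM, above both high-fat diet nuclear IP units (103 and 138). The ob/ob units (192 and 222) and the wild-type units (217 and 245) lay above it. No test was made on these sums, since they contain the chosen transcript.

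Shares within the 5 clusters show what differed in the division of counts. The transcript uc007noh.1 took 35.1% to 40.6% of the summed counts in total RNA. In cytoplasmic IP it took 20.9% and 26.1% in ob/ob, 9.92% and 14.2% on high-fat diet, and 0 in wild type. Transcript uc007nof.1 took 47.8% and 42.0% there in ob/ob, 65.6% and 60.9% on high-fat diet, and 81.8% and 91.9% in wild type. In nuclear IP uc007nof.1 took 93.0% to 97.7%, and in nuclear IgG 96.6%. Shares of a sum move together, so a low uc007noh.1 raises the share of uc007nof.1. The level of uc007nof.1 itself in cytoplasmic IP ran over 73.1 to 117 CPM and was highest in wild type. How many of its reads also match uc007noh.1 was not tested, since the tables hold no read alignments.

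**Figure D4:**
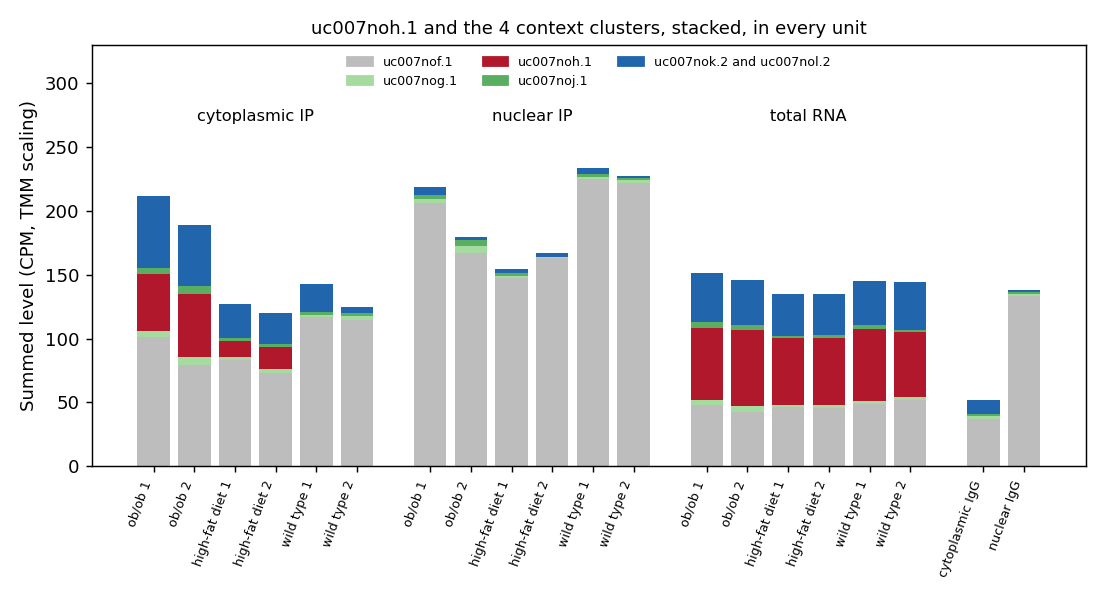
Summed level of uc007noh.1 and the 4 context clusters in CPM with TMM scaling (vertical axis, from 0), stacked by cluster, for each unit of cytoplasmic IP, nuclear IP and total RNA in ob/ob, high-fat diet and wild type, and for the 2 IgG libraries. Transcript uc007noh.1 takes 35.1% to 40.6% of each total RNA bar, 9.92% to 26.1% of the cytoplasmic IP bars of both obese groups, and none of the wild-type cytoplasmic IP, nuclear IP or IgG bars.

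As a description, since uc007noh.1 was selected on these values, its zeros were set beside all other clusters. Of 6677 clusters with at least 10 CPM in all 6 total RNA units, uc007noh.1 was the 1 with 0 counts in both wild-type cytoplasmic IP units. There were 3 with 0 counts in all 6 nuclear IP units, the others being uc008qzg.2 and uc009ngp.1, named here after their values were seen.

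Likeness was measured by Pearson's r of log2(CPM + 1) over the 18 units, among 13516 clusters, as a description. All clusters share these units and their depths, and the units fall into 3 kinds of RNA. The most alike was uc007tlq.1 (r = 0.969), followed by uc008qxs.1 (r = 0.948). Transcript uc007tlq.1 had 8.33 and 8.54 CPM in the cytoplasmic IP of ob/ob, 7.11 and 7.64 in high-fat diet, and 4.84 and 5.24 in wild type, against 8.32 to 9.96 in total RNA. Transcript uc008qxs.1 had 12.8 and 15.4 CPM in ob/ob, 8.11 and 11.1 on high-fat diet, and 4.49 and 5.24 in wild type. In total RNA it had 20.4 and 17.5 CPM in ob/ob, 9.84 and 12.3 on high-fat diet, and 12.3 and 14.7 in wild type. In nuclear IP, uc007tlq.1 had 4.27 to 5.77 CPM and uc008qxs.1 had 1.78 to 2.67 CPM. Unlike uc007noh.1, both thus had counts in every nuclear IP unit. Both were picked by likeness over units that include cytoplasmic IP, so a shared order of mouse groups in cytoplasmic IP follows from the choice. The uc007nok.2 cluster ranked 38 (r = 0.905), while uc007nof.1 ranked 13498 (r = -0.906).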

How the data were processed

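Per the labels' protocols, liver was fractionated by Dounce homogenisation in hypotonic buffer, and extracts were passed over IgG beads before hnRNPK antibody beads. Total RNA is not the input of the extracts. The authors made the deposited expected counts and TPM per transcript with RSEM 1.2.8. TopHat2 2.0.10, Bowtie2 2.1.0 and build mm10 are also named in the submitters' processing notes, with no role. The annotation and strandedness are not given in the sources used here.

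Per cluster, expected counts were added up and rounded. That the total RNA libraries sharing a replicate number are runs of 1 RNA is an assumption. Total RNA and cytoplasmic IP were each fitted on 6 units with edgeR 4.0.16 in R 4.3.3 (quasi-likelihood test, TMM, filterByExpr, Benjamini-Hochberg adjustment over all clusters, threshold 0.05). DESeq2 1.42.0 was an alternative. For edgeR, the SE was taken as |log2 fold change| over the root of the F statistic. Printed levels use TMM over 18 units and 2 IgG libraries. The fits were first tested on simulated data in which 200 clusters had been altered. The simulated spread between units was capped, so that test does not cover clusters whose units stand far apart. Its outcome is not given here.

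All 5 clusters are named, with the 2 clusters most like uc007noh.1 by r. The member, lists and tests were chosen with earlier results of these data known. Cell type markers were planned but could not be analysed, since no table used here pairs the identifiers with symbols. For the IgG libraries, which carry the molecule label of hnRNPK IP, the title decided. Intervals and floors cover counting error only.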

Additional observations from a re-analysis of the deposited data

Results flagged for a closer look

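In high-fat diet total RNA, 1 of the 4 libraries stood apart from the other 3 for the uc007nok.2 cluster, with 36.7 CPM by library size and the next at 39.9 CPM. Chance gives such a gap in about 1 in 20 groups.

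For that cluster the cytoplasmic IP lay above total RNA in both ob/ob units, at a ratio of means of 1.42, and below it in both units of high-fat diet (0.780) and of wild type (0.362). For uc007noh.1 and the uc007nok.2 cluster summed, the same ratios were 1.05 in ob/ob, 0.473 in high-fat diet and 0.145 in wild type. For all 5 clusters summed, they were 1.35 in ob/ob, 0.915 in high-fat diet and 0.925 in wild type. These opposite directions were not tested as differences, and both sums contain the chosen transcript. The share of all clusters with such opposite directions was not counted, so how common they are is not known here. By library size alone, the uc007nok.2 cluster had a ratio of 1.02 in ob/ob, with the lower IP unit at 40.6 CPM against 44.3 and 46.0 CPM in total RNA, so the direction did not hold in both units. On that scale the ob/ob values for the sums of 2 and of 5 clusters were 0.754 and 0.973, below total RNA as in the other groups.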

How the results depend on the processing

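For uc007noh.1 in total RNA, no alternative gave a call. The sign for high-fat diet over wild type turned by library size (0.11), and leaving out a replicate gave -0.11 to 0.11 on the log2 scale. Context clusters called in total RNA numbered 2 with DESeq2 and 2 with libraries kept separate for ob/ob over wild type (0 to 2 leaving out a replicate), and 2 and 3 for ob/ob over high-fat diet. These were uc007nog.1 and uc007noj.1, which are 1 measurement, joined by the uc007nok.2 cluster where there were 3. In cytoplasmic IP 1 was called for ob/ob over wild type by library size, with no filter, and with the replicate block (0 to 1 leaving out a replicate), 1 for high-fat diet over wild type with no filter (0 to 1), and 1 for ob/ob over high-fat diet by library size and with no filter. Each time it was the uc007nok.2 cluster (with the replicate block 2.11, edgeR adjusted p = 0.044). Signs turned for uc007nof.1 in total RNA by library size (0.015 for high-fat diet over wild type, -0.021 for ob/ob over high-fat diet, with -0.050 to 0.071 leaving out a replicate). They also turned for uc007nog.1 and uc007noj.1 in high-fat diet over wild type: in total RNA with DESeq2 size factors and test (-0.0052 each; -0.14 to 0.17 leaving out a replicate), and in cytoplasmic IP with the replicate block (0.0092; -0.29 to 0.32). The causes were not tested.

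By library size the level of uc007noh.1 in cytoplasmic IP was 41.2 CPM for ob/ob and 11.3 for high-fat diet, and 70.9, 63.9 and 59.4 CPM in ob/ob, high-fat diet and wild-type total RNA. With DESeq2 size factors high-fat diet total RNA had 50.2 CPM. In TPM its share of the 5 clusters in total RNA was 41.9% in ob/ob, 42.1% in high-fat diet and 40.4% in wild type. Library size scaling moved the median of all clusters to 0.13 for high-fat diet over wild type in total RNA, and in cytoplasmic IP to 0.12 and 0.20 for ob/ob over wild type and over high-fat diet. Calls in cytoplasmic IP were then 437 higher and 235 lower for ob/ob over wild type, against 336 and 329 with TMM, and 333 higher and 122 lower for ob/ob over high-fat diet, against 53 and 65. In the same-number check, deviations of replicates did not correlate above 0.1 in every pair (r of -0.255 to -0.00085 in total RNA and -0.0045 to 0.17 in cytoplasmic IP), so the numbers were not taken as pairs, and the replicate block changed no other call here. With 338469 counts, 3 counts in cytoplasmic IgG correspond to 6.51 CPM with TMM scaling.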
